A study of Mus musculus with 48 samples.

Results

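Mouse embryonic fibroblasts (MEFs) without HMGN1 and HMGN2 were compared between day 8 and day 4 of adipogenic differentiation. HMGN proteins bind nucleosomes, and the study asked how their loss affects the change of white fat cells into brown-like ones. The paper describes the mixture given to the MEFs as one that favours brown-like adipocytes. The comparison uses the 3 libraries named as day 8 and the 3 named as day 4 among the double knockout (DKO) MEF libraries, which is 6 of the 24 MEF libraries and of the 48 libraries of the series. All 6 came from C57BL/6 embryos in which both Hmgn1 and Hmgn2 are inactivated throughout the animal (Hmgn1-/- and Hmgn2-/-), so that the genotype is shared and only the day differs. Confluent cultures were placed in a medium with insulin at 0.5 µg/ml, dexamethasone at 5 µM, IBMX at 0.5 mM, T3 at 1 nM and rosiglitazone at 1 µM, and they stayed in it for 8 days. Day 4 and day 8 thus lie within the same treatment, and the later switch to insulin and T3 alone came only before day 12. The replicates are described as biological, but whether they came from separate embryos or separate cultures is not given in the sources used here, and the p-values measure the spread between these samples.

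MEFs are a mixed culture of connective tissue cells, of which a portion can become adipocytes. Dexamethasone acts on the glucocorticoid receptor, IBMX raises cyclic AMP by blocking phosphodiesterases, and rosiglitazone is a ligand of PPARγ, the nuclear receptor that together with C/EBPα switches on the genes of the mature fat cell. Cells that commit to this fate leave the cell cycle, take up and make fatty acids, store them in droplets coated by perilipins and CIDE proteins, and secrete adipokines. Cells that do not commit keep a fibroblast character and make collagens and other matrix.

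The targeted genes were examined first. Levels are given as CPM, read counts scaled by library totals adjusted with TMM factors, except where scaling by totals is named. Hmgn2 was at 0 CPM in 4 of the 6 DKO libraries. It was at 0.0409 and 0.111 CPM in the third replicates of day 4 and day 8. In the 6 wild-type (WT) libraries of the same days it was at 144 to 198 CPM. Hmgn1 was still counted, at 94.4, 77.7 and 97.0 CPM at day 4 and at 114, 106 and 85.0 CPM at day 8, against 167 to 218 CPM in WT. The counts are per gene and do not show from which part of Hmgn1 those reads came. Of the other members of the family, Hmgn3 was at 51.5, 69.1 and 37.1 CPM at day 4 and at 35.6, 49.0 and 84.9 CPM at day 8. Hmgn5 lay between 21.8 and 27.1 CPM in all 6 libraries. For Hmgn1, Hmgn3 and Hmgn5 the libraries of the 2 days overlapped.

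The 6 libraries held between 20871046 and 27043814 estimated reads on genes. Markers of 8 cell types showed a fibroblast culture with a fat-cell component and a macrophage component, and with neural markers at a lower level. The summed level of 11 fibroblast markers was 13354 to 19189 CPM at day 4 and 21275 to 30024 CPM at day 8, and the 2 ranges did not overlap. Such a sum follows its most abundant members, the collagens among them, and the single markers went both ways. The log2 fold changes were 0.38 for Pdgfrb and 0.43 for Twist1. For Pdgfra, Thy1 and Prrx1 they were -0.01, -0.14 and -0.24. The 8 adipocyte markers summed to 2739 to 7336 CPM at day 4 and to 4322 to 15686 CPM at day 8, and these ranges overlapped. Macrophage markers (8 genes, among them Csf1r, Adgre1 and C1qa) summed to 704 to 1134 CPM at day 4 and to 1165 to 1428 CPM at day 8. The 4 neural markers summed to 47.2 to 77.7 CPM at day 4 and to 75.9 to 93.6 CPM at day 8, with overlap. Of the neural markers, Elavl4 stayed below 1 CPM. Of 6 skeletal muscle markers, all were below 1 CPM in every day 4 library and 5 were at day 8. All 4 cartilage and bone markers stayed below 1 CPM, as did Pecam1 and Tie1 of the endothelial markers and Epcam and Krt5 of the epithelial ones. In bulk RNA, fewer cells of a type and less RNA of that type per cell cannot be told apart.

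One library stood apart and touches most of what follows. For 4112 of 15337 tested genes (26.8%) both day 8 replicates 1 and 2 lay above all 3 day 4 libraries, and day 8 replicate 3 was also above them for 1184 of these (28.8%), inside the day 4 range for 2152 and below it for 776. Both replicates 1 and 2 lay below day 4 for 3436 genes (22.4%), and replicate 3 did so too for 1072 (31.2%). When replicate 1 or replicate 2 was examined in the same way, it followed the other day 8 libraries for 70.9% to 81.9% of genes. On the first principal component of the log2 CPM, which held 67.3% of the variance among the 6 libraries, the day 8 coordinates were 51.0, 34.7 and -25.1 and the day 4 coordinates were -23.2, -45.3 and 7.80. Day 8 replicate 3 therefore sat among the day 4 libraries on that axis. It is kept under its label, and the counts of the gene groups that change without it are given both ways.

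No gene passed the test of the 6 libraries. edgeR's quasi-likelihood test called 0 of 15337 genes (0%) at an adjusted p under 0.05 with a change of at least 1.5-fold, and its smallest adjusted p was 0.269. At an unadjusted p under 0.05 it gave 753 genes that were higher at day 8 (4.91%) and 733 that were lower (4.78%). DESeq2 on the same libraries called 145 genes (0.945%), 69 higher and 76 lower. A fit over all 24 MEF libraries of days 0 to 12, which borrows the spread of the other groups, called 58 of 16996 genes (0.341%), 25 higher and 33 lower. Both of these called the same 43 genes, which is 74.1% of the calls of the fit over 24 libraries and 29.7% of those of DESeq2. In all 43 the day 4 and day 8 libraries did not overlap. The same libraries selected these genes, so this is no further check of them. limma-voom with quantile normalization called 0 genes and gave 1437 at an unadjusted p under 0.05.

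Because the replicate spread was large, a plainer measure is used beside the tests: whether all 3 day 8 libraries lay on one side of all 3 day 4 libraries. This held upward for 1184 genes (7.72%) and downward for 1072 (6.99%). Those shares are the background for each gene group below. An exact permutation test of 3 against 3 libraries gives 0.1 at the lowest, so no single gene could pass it at 0.05. The median log2 fold change of all tested genes was 0.01. With libraries scaled by their totals in place of TMM factors it moved to -0.14, and the split of genes that did not overlap moved from 1184 upward and 1072 downward to 407 upward and 2345 downward, so directions here are relative to the typical gene. Apart from the genes set as defining ones (adipocyte, brown fat, collagen, Mki67, Acta2 and Dlk1 among them) and the Hmgn genes, the genes named below were chosen after their values were seen.

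**Figure D1:**
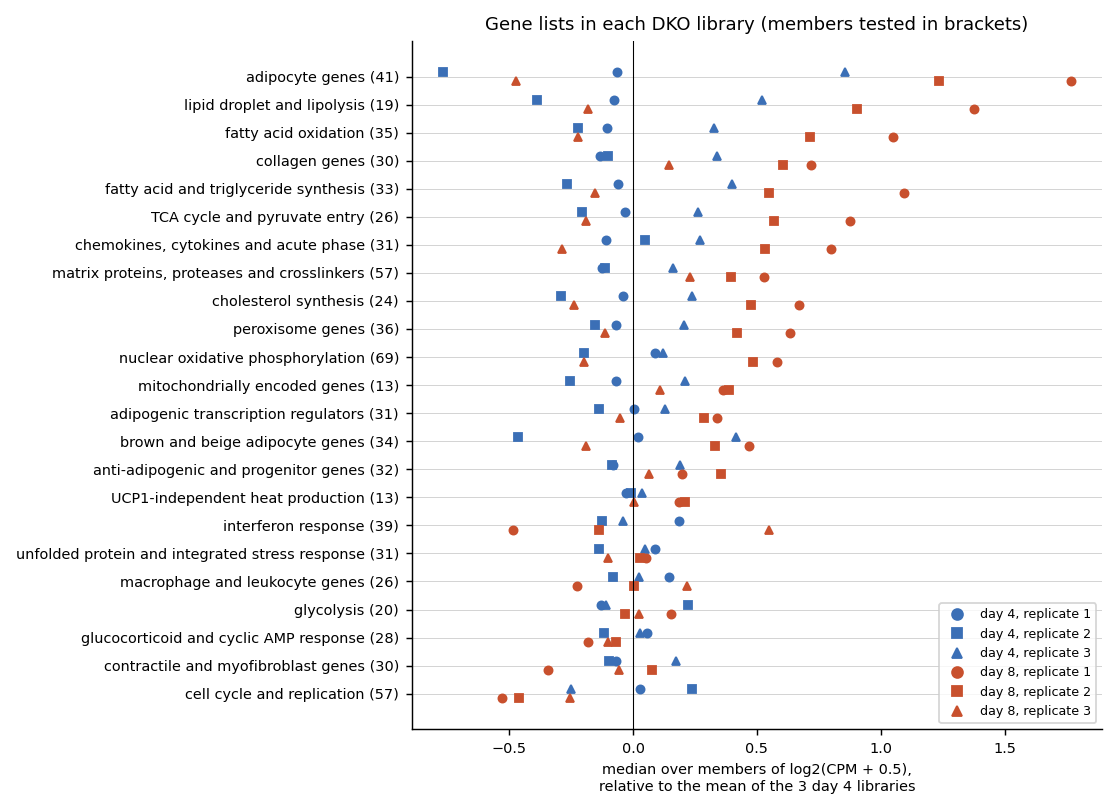
Level of 23 gene lists in each DKO library. The x axis is the median, over the tested members of a list, of log2(CPM + 0.5) relative to the mean of the 3 day 4 libraries, blue for day 4 and red for day 8, with a marker shape per replicate and lists ordered by their median log2 fold change. Day 8 replicates 1 and 2 are right of day 4 for adipocyte genes, lipid droplets, fatty acid oxidation and the TCA cycle, where replicate 3 lies within the day 4 range. For matrix proteins all 3 day 8 libraries lie right of day 4. For the cell cycle replicates 1 and 2 lie left of day 4, and replicate 3 is level with the lowest day 4 library at -0.25.

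The adipocyte genes were far higher at day 8 in replicates 1 and 2, and not in replicate 3. Of 41 tested adipocyte genes 39 had a positive log2 fold change, with a median of 1.01, but in only 4 (9.76%) were all 3 day 8 libraries above day 4. Without replicate 3 this was so for 36 of 41 (87.8%), against 26.8% of all genes, and the median log2 fold change was 1.45. The adipocyte list stood at -0.07, -0.77 and 0.85 on the log2 scale in the day 4 libraries, relative to their own mean, and at 1.77, 1.24 and -0.47 at day 8. The day 4 libraries were spread as well, with replicate 3 the highest and replicate 2 the lowest.

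Pparg, the receptor that rosiglitazone activates, was at 29.3, 29.5 and 39.8 CPM at day 4 and at 78.1, 56.6 and 20.6 CPM at day 8. Cebpa, its partner among the transcription factors, was at 119, 84.0 and 195 CPM and then at 387, 292 and 105 CPM. In both genes replicates 1 and 2 of day 8 exceeded every day 4 library, and replicate 3 was below at least 2 of them. The log2 fold changes were 0.64 ± 0.44 (SE) for Pparg and 0.97 ± 0.51 for Cebpa, with edgeR adjusted p-values of 0.593 and 0.533, and without replicate 3 they were 1.00 and 1.33. Across 31 tested regulators of adipogenesis the median log2 fold change was 0.22, with 25 of them higher, and it was 0.13 without day 8 replicate 1 and 0.14 without day 8 replicate 2. All 3 day 8 libraries lay above day 4 for 3 of the 31 (9.68%) and below for 1 (3.23%), against 7.72% and 6.99% of all genes. Without replicate 3 these counts were 17 (54.8%) and 4 (12.9%), against 26.8% and 22.4%.

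Few single adipocyte genes separated in all 6 libraries. The 4 of 41 with all 3 day 8 libraries above day 4 (9.76%, near the 7.72% of all genes) were Lep, Hp, Apoe and Adm. These encode secreted proteins, as do Adipoq, Retn and Cfd, in which the days overlapped. The genes described next had day 8 replicate 3 within the day 4 range or below it. Adipoq, which encodes adiponectin, was at 39.3, 32.4 and 137 CPM at day 4 and at 387, 264 and 18.4 CPM at day 8, so that the 6 libraries spanned more than the 2 days did. Fabp4, the fatty acid carrier of fat cells, was at 1018, 657 and 2125 CPM and then at 5666, 4186 and 620 CPM. Slc2a4, the insulin-responsive glucose transporter, was at 2.71, 2.06 and 8.91 CPM and then at 45.1, 30.7 and 3.77 CPM. Lpl, the lipase that releases fatty acids for uptake, and Cd36, a fatty acid transporter, were less spread, with day 8 values of 7935, 6519 and 3416 CPM and of 2255, 1608 and 581 CPM against day 4 maxima of 4447 and 1287 CPM. Car3, a carbonic anhydrase abundant in fat cells, spanned the widest range of these genes, from 5.77 CPM in day 8 replicate 3 to 1173 CPM in day 8 replicate 1. The log2 fold changes of Adipoq, Fabp4 and Slc2a4 were 1.67 ± 1.04, 1.45 ± 0.80 and 2.53 ± 0.95 (SE), and edgeR's adjusted p was 0.567, 0.54 and 0.501. Without replicate 3 they were 2.20, 1.93 and 3.03.

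**Figure D2:**
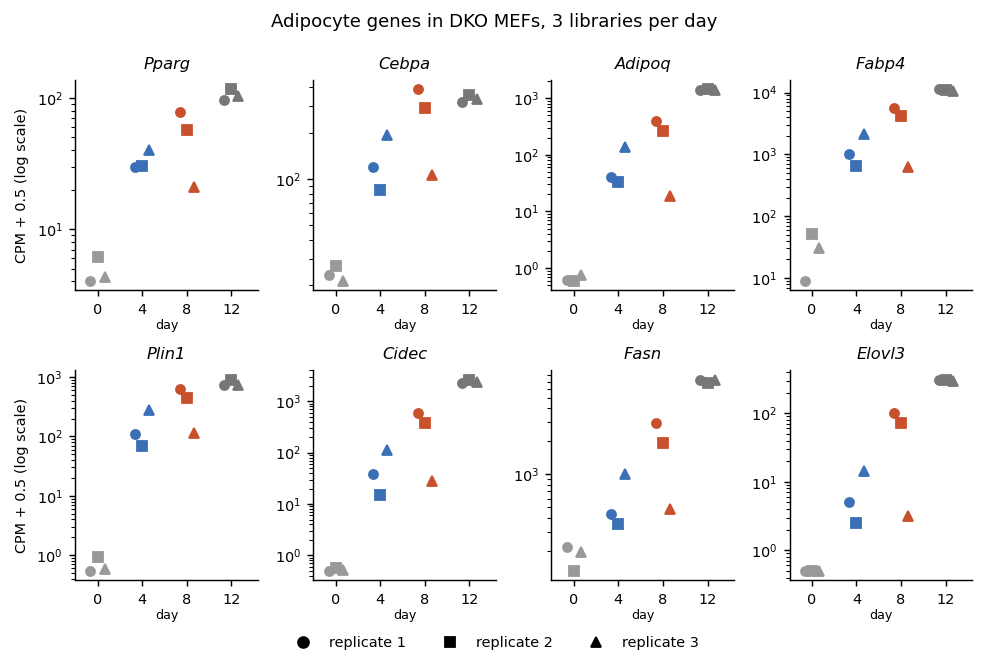
CPM + 0.5 on a log axis for 8 genes of the fat cell in the 3 DKO MEF libraries of days 0, 4, 8 and 12 (x axis), 1 marker shape per replicate. Day 8 replicates 1 and 2 lie between the day 4 and day 12 libraries for Adipoq, Fabp4, Cidec, Fasn and Elovl3, while day 8 replicate 3 lies within or below the range of day 4; for Adipoq it is at 18.4 CPM against 32.4 to 137 CPM at day 4.

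Among droplet proteins and the enzymes of lipid synthesis the best known members had the same pattern. Plin1, the perilipin of large droplets, was at 110, 69.7 and 277 CPM at day 4 and at 623, 437 and 114 CPM at day 8. Cidec, which promotes droplet fusion, was at 37.7, 14.7 and 112 CPM and then at 600, 382 and 27.8 CPM, a log2 fold change of 2.61 ± 1.15 (SE) with an edgeR adjusted p of 0.52. Fasn, fatty acid synthase, was at 431, 350 and 998 CPM and then at 2970, 1944 and 481 CPM. Scd1, the main stearoyl-CoA desaturase, was at 893, 362 and 3042 CPM and then at 10175, 6121 and 351 CPM. For each of these 4 genes day 8 replicate 3 was within the day 4 range or below it. Over 19 genes of lipid droplets and lipolysis and 33 genes of fatty acid and triglyceride synthesis the medians were 0.75 and 0.50. All 3 day 8 libraries were higher for 1 and 2 members (5.26% and 6.06%) and lower for 1 and 4 (5.26% and 12.1%). Without replicate 3 the counts were 15 and 22 higher (78.9% and 66.7%, against 26.8% of all genes). Lower were 2 and 6 (10.5% and 18.2%, against 22.4%). The medians turned on single libraries: without day 8 replicate 1 they were 0.35 for droplets, 0.20 for synthesis and 0.63 for the adipocyte list, and without day 4 replicate 3 they were 0.75 for synthesis and 1.76 for the adipocyte list. Without day 8 replicate 3 the droplet and synthesis medians were 1.07 and 0.81.

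Of the 8 members of these lists that separated in all 6 libraries (Pnpla3, Agpat3 and Mcat upward and Hilpda, Elovl5, Elovl6, Acsl3 and Acsl4 downward), Pnpla3 and Acsl4 had log2 fold changes beyond 1 in size. Pnpla3, a triglyceride-associated phospholipase-like protein, was at 1.87, 2.65 and 3.92 CPM at day 4 and at 15.5, 10.96 and 5.66 CPM at day 8. Acsl4, which activates arachidonic acid and similar polyunsaturated fatty acids, was at 129, 176 and 91.0 CPM and then at 54.2, 53.7 and 74.2 CPM. Even replicate 3 lay beyond day 4 for both. Their log2 fold changes were 1.91 ± 0.43 and -1.13 ± 0.26 (SE), which edgeR did not call (adjusted p = 0.475 for both), DESeq2 called (adjusted p = 0.00388 and 0.00902), and edgeR's fit over 24 libraries called too (adjusted p = 0.0189 and 0.0315).

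The brown and beige genes were low and mixed. Ucp1, the uncoupling protein of brown and beige fat, was at 0, 0.0374 and 0.531 CPM at day 4 and at 1.46, 0.837 and 0.185 CPM at day 8. Cidea, a further marker of these cells, stayed under 0.5 CPM in all 6 libraries and did not enter the test. Elovl3, a fatty acid elongase induced in brown fat and in cultured adipocytes, was at 4.54, 1.98 and 14.1 CPM and then at 101, 72.4 and 2.699 CPM. Adrb3, the β3-adrenergic receptor, was at 1.44, 0.822 and 3.84 CPM and then at 10.3, 6.62 and 1.11 CPM. For each of these 4 genes day 8 replicate 3 lay within the day 4 range. Among the coactivators of mitochondrial genes, Ppargc1a was at 16.2, 6.32 and 13.7 CPM and then at 16.4, 8.52 and 4.07 CPM, and Ppargc1b was at 4.96, 3.51 and 7.97 CPM and then at 16.4, 8.41 and 3.36 CPM. Ppara, the receptor for fatty acids that drives their oxidation, was at 3.18, 1.31 and 4.78 CPM and then at 6.57, 5.36 and 1.48 CPM. Of 34 tested brown and beige genes 24 had a positive log2 fold change, with a median of 0.21. None had all 3 day 8 libraries higher, and 4 (11.8%), Dio2 among them, had all 3 lower, against 6.99% of all genes. Without replicate 3 the counts were 16 higher (47.1%, against 26.8% of all genes) and 7 lower (20.6%, against 22.4%). The median ranged from 0.11 without day 8 replicate 1 or day 4 replicate 2 to 0.38 without day 4 replicate 3.

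Genes of energy metabolism mostly had positive but smaller log2 fold changes. All 69 tested nuclear genes of oxidative phosphorylation had a positive log2 fold change, with a median of 0.33, yet in none did the 2 days separate. Without day 8 replicate 3 68 of 69 (98.6%) had day 8 above day 4, against 26.8% of all genes. The 26 genes of the TCA cycle and pyruvate entry and the 35 genes of fatty acid oxidation had medians of 0.47 and 0.54, with 25 and 29 members positive. The medians of these lists turned on single day 8 libraries. For the TCA cycle, fatty acid oxidation and nuclear oxidative phosphorylation they were 0.22, 0.22 and 0.16 without replicate 1 and 0.68, 0.83 and 0.52 without replicate 3. Without replicate 3, 24 of 26 genes of the TCA cycle (92.3%) and 27 of 35 of fatty acid oxidation (77.1%) lay above day 4. The sole member of the oxidation list to separate in all 6 libraries was Acaa1a, a peroxisomal thiolase, at 62.6, 74.9 and 73.9 CPM at day 4 and at 108, 103 and 89.6 CPM at day 8. Of 13 mitochondrially encoded genes 4 (30.8%) separated upward, among them mt-Nd4, at 2430, 2538 and 2936 CPM and then at 3653, 3598 and 3155 CPM. With libraries scaled by their totals, 2 of the 13 separated, against 2.65% of all genes. Without replicate 3, 9 did (69.2%), and without replicate 1 the median of 0.28 was 0.19. With limma-voom and quantile normalization that median was 0.0024.

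A portion of the cell cycle genes had all day 8 libraries below day 4, and no member passed edgeR on the 6 libraries. Relative to the day 4 mean the list stood at 0.03, 0.24 and -0.25 on the log2 scale at day 4 and at -0.53, -0.46 and -0.25 at day 8, so that replicate 3 was level with the lowest day 4 library. Of 57 tested genes of the cell cycle and DNA replication 49 had a negative log2 fold change, with a median of -0.44, against 0.01 over all tested genes. In 23 of the 57 (40.4%) all day 8 libraries lay below all day 4 libraries, against 6.99% of all genes, and in 0 did they lie above. Without replicate 3 the counts were 37 (64.9%, against 22.4% of all genes) and 4. At an unadjusted p under 0.05 by edgeR, 28 of the 57 were lower and 0 higher, against 4.78% and 4.91% of all genes. DESeq2 called 11 of the 57 lower, against 76 of all 15337 genes. The fit over 24 libraries by edgeR called 1 lower, against 33 of 16996, and edgeR on the 6 libraries called 0. The genes of one list are transcribed together and are not independent replicates. The 8 members with a positive log2 fold change were Ccnd2, Ccne1, Ccne2, Cdkn1a, Cdkn1c, Cdkn2c, E2f2 and Mcm6, of which Cdkn1a, Cdkn1c and Cdkn2c encode inhibitors of cyclin-dependent kinases and most of the others act at the entry to S phase.

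The members that separated most clearly act in mitosis. Ccnb1, cyclin B1, was at 58.9, 67.4 and 46.9 CPM at day 4 and at 31.6, 29.1 and 31.8 CPM at day 8. Cenpa, the histone H3 variant of centromeres, was at 38.5, 40.02 and 28.4 CPM and then at 15.4, 17.3 and 22.2 CPM. Ccnb2, cyclin B2, was at 34.0, 35.7 and 21.6 CPM and then at 12.6, 14.9 and 16.4 CPM. Day 4 was the more variable of the 2 days in these genes, with replicate 3 the lowest, and day 8 replicate 3 was the highest of its day in all 3. Cdc20, an activator of the anaphase-promoting complex, was at 39.0, 46.6 and 27.7 CPM and then at 18.1, 16.7 and 22.0 CPM. Tpx2, a spindle assembly factor, was at 87.0, 86.9 and 65.0 CPM and then at 44.5, 45.1 and 55.1 CPM. Rrm2, the regulated subunit of ribonucleotide reductase, was at 155, 213 and 117 CPM and then at 85.1, 85.3 and 112 CPM, and was the member that edgeR's fit over 24 libraries called (adjusted p = 0.042). The log2 fold changes of Ccnb1, Cenpa, Ccnb2, Cdc20 and Tpx2 lay between -1.07 and -0.73, with SE of 0.14 to 0.22 and DESeq2 adjusted p-values of 0.000239 to 0.0131. Mki67, the proliferation marker, was at 138, 175 and 113 CPM and then at 86.4, 86.7 and 117 CPM. Its day 8 replicate 3 reached into the day 4 range, and the log2 fold change was -0.57 ± 0.20 (SE) with an edgeR adjusted p of 0.501.

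The proximal promoters of the 5 cell cycle genes with the smallest p among those with an entry in the promoter table used here are shown because these members had the smallest p of the list. Each sequence is the 120 bases before the RefSeq start of the gene (build GRCm38.p6), read in the direction of transcription, and the capitals mark CCAAT or its reverse complement ATTGG, the CCAAT box.
Ccnb1 (chr13:100786487-100786606, minus strand): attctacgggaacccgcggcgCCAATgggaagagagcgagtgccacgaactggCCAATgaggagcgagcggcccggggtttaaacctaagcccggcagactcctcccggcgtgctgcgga
Cenpa (chr5:30666766-30666885, plus strand): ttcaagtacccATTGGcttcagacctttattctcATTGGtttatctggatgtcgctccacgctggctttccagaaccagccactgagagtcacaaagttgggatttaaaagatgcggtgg
Ccnb2 (chr9:70421555-70421674, minus strand): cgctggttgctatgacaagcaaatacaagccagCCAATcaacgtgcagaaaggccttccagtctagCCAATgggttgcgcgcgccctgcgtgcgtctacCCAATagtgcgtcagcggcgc
Cdc20 (chr4:118437344-118437463, minus strand): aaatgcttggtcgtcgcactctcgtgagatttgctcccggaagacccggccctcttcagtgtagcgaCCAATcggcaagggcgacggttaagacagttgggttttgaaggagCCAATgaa
Kif23 (chr9:61946800-61946919, minus strand): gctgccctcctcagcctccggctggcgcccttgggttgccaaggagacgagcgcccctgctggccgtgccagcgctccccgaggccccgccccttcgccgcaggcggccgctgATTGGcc

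Ccnb1, Cenpa and Cdc20 held 2 such boxes and Ccnb2 held 3, and Kif23, a kinesin of the midbody, held 1. Of the 43 tested cell cycle genes with a promoter entry, 27 (62.8%) held at least 1 box in these 120 bases and 14 (32.6%) held at least 2. Among all 27025 promoters the shares were 22.1% and 4.91%, and among the 10922 of tested genes they were 25.8% and 7.43%. A match is a description of the letters and says nothing about binding in these cells.

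Nr4a1 had the smallest p of all genes in edgeR's test of the 6 libraries. It encodes an orphan nuclear receptor of the immediate-early class that cyclic AMP induces. It was at 68.3, 58.4 and 60.1 CPM at day 4 and at 32.1, 32.3 and 30.8 CPM at day 8, means of 62.2 ± 5.29 and 31.7 ± 0.852 CPM (SD, n = 3). Both days were tight, and day 8 replicate 3 did not stand apart. The log2 fold change was -0.98 ± 0.09 (SE), and the unadjusted p 1.76e-05. Its adjusted p was 0.269 by edgeR on the 6 libraries, 0.0189 by edgeR's fit over 24 libraries and 6.27e-12 by DESeq2. Without replicate 3 it was -0.98. In the other DKO MEF groups Nr4a1 was at 8.02 to 12.9 CPM at day 0 and at 7.44 to 11.99 CPM at day 12. The day 12 medium lacked IBMX, dexamethasone and rosiglitazone, and the day differed too, so their parts cannot be told apart. The 250 bases before its RefSeq start are shown because they hold the half-site TGACG of the cyclic AMP response element, here as its reverse complement CGTCA, in capitals.
Nr4a1 (chr15:101266596-101266845, plus strand, GRCm38.p6): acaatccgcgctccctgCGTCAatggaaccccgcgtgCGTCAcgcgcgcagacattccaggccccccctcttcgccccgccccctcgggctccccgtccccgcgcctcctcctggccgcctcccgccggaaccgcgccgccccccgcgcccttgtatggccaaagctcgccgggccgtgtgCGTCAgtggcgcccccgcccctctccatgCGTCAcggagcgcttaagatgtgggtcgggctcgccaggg

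The 4 half-sites began 233, 213, 69 and 40 bases before the start. At least 4 in this window were found in 0.152% of the 27025 promoters and at least 1 in 17.9%. Among promoters of tested genes the shares were 0.33% and 26.6%. The number 4 was taken from Nr4a1 itself, so these shares are a description and not a test. A match says nothing about binding in these cells. Day 4 and day 8 shared the medium with IBMX, and a part of cyclic AMP in the difference was not tested. Of 28 tested members of the glucocorticoid and cyclic AMP list, Nr4a1 included, 5 (17.9%) separated downward and 3 (10.7%) upward, with a median of -0.07. The shares of all genes were 6.99% and 7.72%. Without day 8 replicate 3 the counts were 10 (35.7%) and 5 (17.9%), against 22.4% and 26.8% of all genes. Fosl2, a subunit of AP-1, was at 282, 326 and 259 CPM and then at 167, 188 and 237 CPM, and Lcn2, which encodes lipocalin 2, was at 51.8, 35.5 and 65.6 CPM and then at 109, 93.2 and 90.8 CPM.

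Of the collagens and other matrix genes, a larger share than of all genes had all day 8 libraries above day 4, and no member passed edgeR on the 6 libraries. On the log2 scale, relative to the day 4 mean, the list of matrix proteins stood at -0.13, -0.11 and 0.16 at day 4 and at 0.53, 0.40 and 0.23 at day 8, with no overlap, while for collagens replicate 3 (0.14) lay below the highest day 4 library (0.34). Of 30 tested collagen genes 9 (30%) separated upward and 2 (6.67%) downward, and of 57 genes for matrix proteins, proteases and crosslinkers 18 (31.6%) separated upward and 4 (7.02%) downward, against 7.72% and 6.99% of all genes. The medians were 0.50 and 0.36, and they were positive under every scaling and with each library left out. With libraries scaled by their totals, 4 and 13 members separated upward (13.3% and 22.8%), against 2.65% of all genes. Without day 8 replicate 3 the counts were 19 and 35 upward (63.3% and 61.4%, against 26.8% of all genes). Downward were 4 and 11 (13.3% and 19.3%, against 22.4%). DESeq2 called 2 collagen and 6 other matrix genes higher, against 69 of all 15337 genes, and 1 of each lower. The fit over 24 libraries by edgeR called 0 and 2 higher, against 25 of 16996 genes, and edgeR on the 6 libraries called none. At an unadjusted p under 0.05 edgeR gave 9 and 21 higher, against 4.91% of all genes, and 2 of each lower, against 4.78%.

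**Figure D3:**
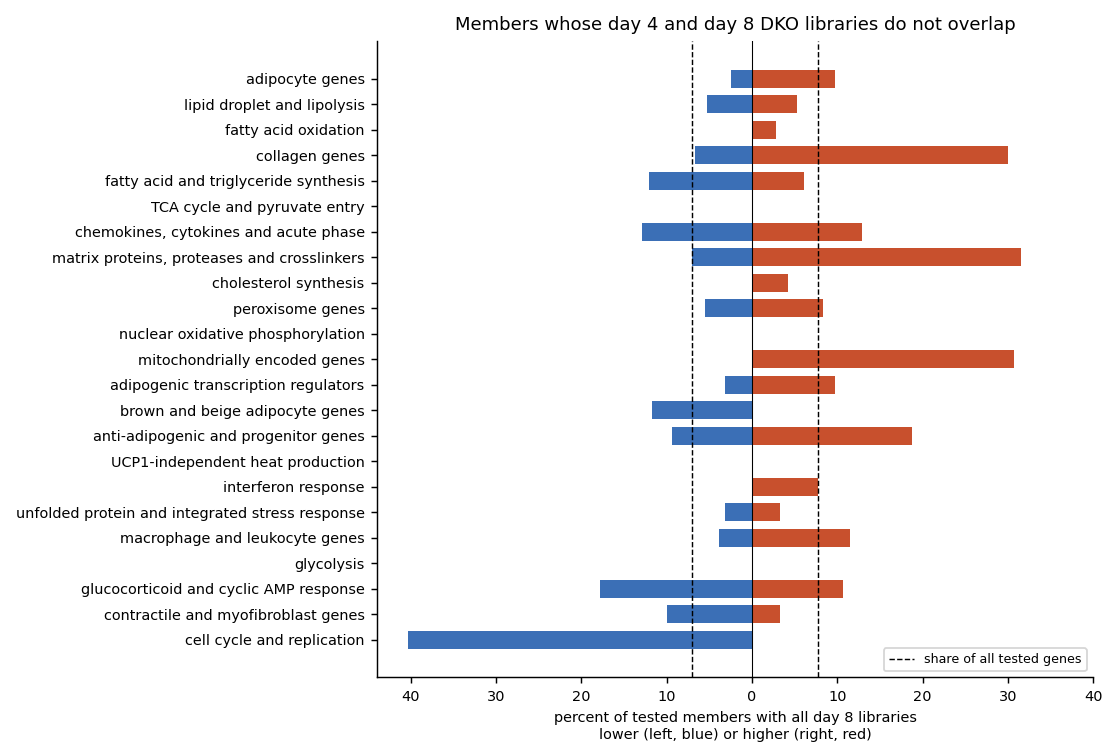
Share of the tested members of each list whose 3 day 8 DKO libraries all lay below (blue, left) or all above (red, right) the 3 day 4 libraries, in percent, with lists in the order of their median log2 fold change. The dashed lines are the shares over all tested genes, 6.99% and 7.72%. Cell cycle genes reach 40.4% on the left, and collagens and matrix proteins reach 30% and 31.6% on the right, while nuclear oxidative phosphorylation has 0% on both sides.

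Col3a1, the chain of fibrillar type III collagen, was at 3889, 6330 and 6294 CPM at day 4 and at 13448, 11867 and 9113 CPM at day 8. Its means of 5504 ± 1399 and 11476 ± 2194 CPM (SD, n = 3) gave a log2 fold change of 1.05 ± 0.24 (SE), with an adjusted p of 0.475 by edgeR and 0.00556 by DESeq2. Col1a1 and Col1a2, the chains of type I collagen, were higher in replicates 1 and 2 only. Col1a1 was at 1528, 1230 and 2847 CPM and then at 4642, 4372 and 1794 CPM, and Col1a2 at 2158, 1800 and 3831 CPM and then at 6346, 6097 and 3248 CPM. Col14a1, a collagen that associates with fibrils, was at 19.2, 11.7 and 39.6 CPM and then at 72.3, 73.3 and 56.1 CPM. Col7a1, of the anchoring fibrils, went the other way, at 71.6, 85.6 and 60.0 CPM and then at 29.7, 34.5 and 46.1 CPM, with no overlap between the days.

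Dcn, the proteoglycan decorin, was at 304, 262 and 429 CPM at day 4 and at 1007, 1017 and 603 CPM at day 8, a log2 fold change of 1.39 ± 0.27 (SE) with adjusted p-values of 0.475 by edgeR, 0.000239 by DESeq2 and 0.0465 by edgeR's fit over 24 libraries. Lum, the related proteoglycan lumican, was at 27.6, 19.3 and 52.9 CPM and then at 219, 202 and 69.6 CPM. In both, replicate 3 was the lowest day 8 library and still above day 4. Dpt, dermatopontin, was at 241, 137 and 333 CPM and then at 725, 664 and 495 CPM. Adamts5, an aggrecan- and versican-cleaving protease, was at 118, 104 and 149 CPM and then at 285, 253 and 197 CPM. Mmp2, gelatinase A, was at 759, 483 and 669 CPM and then at 1025, 1099 and 1196 CPM, and there replicate 3 was the highest library of its day. P4ha3, a prolyl hydroxylase subunit for collagen, and Timp1, a metalloproteinase inhibitor, were the reverse, with day 8 values of 36.8, 39.4 and 40.2 CPM and of 39.6, 42.5 and 23.3 CPM against day 4 minima of 47.1 and 50.5 CPM.

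Genes of the fibroblast and progenitor state did not share one direction. Dlk1, the preadipocyte factor that restrains adipogenesis, was at 414, 123 and 565 CPM at day 4 and at 1153, 1067 and 480 CPM at day 8. Twist1, a mesenchymal transcription factor, was tight, at 37.2, 33.7 and 34.8 CPM and then at 47.9, 50.6 and 44.8 CPM. Dkk2, a Wnt antagonist, was at 13.5, 10.6 and 16.7 CPM and then at 23.1, 25.7 and 28.3 CPM. S100a4, a calcium-binding protein and 1 of the 11 fibroblast markers, was lower, at 60.4, 97.7 and 76.6 CPM and then at 26.0, 29.2 and 36.4 CPM. Acta2, smooth muscle actin of myofibroblasts, overlapped, at 79.0, 72.5 and 128 CPM and then at 44.6, 111 and 67.6 CPM, and Ankrd1, a stretch-responsive gene, separated downward at levels of 2.32 to 2.63 and 0.730 to 1.22 CPM. The 30 contractile genes had a median of -0.20, with 3 separating downward (10%) and 1 upward. Without day 8 replicate 3, 9 (30%) and 2 (6.67%) did, against 22.4% and 26.8% of all genes. The median of the contractile genes was -0.080 without day 8 replicate 1 and -0.098 without day 4 replicate 3. Of 32 anti-adipogenic and progenitor genes 6 (18.8%) separated upward and 3 (9.38%) downward, and their median of 0.14 turned to -0.01 with libraries scaled by their totals and ranged from 0.062 without day 8 replicate 2 to 0.43 without day 4 replicate 3. Without day 8 replicate 3 the counts were 13 (40.6%) and 7 (21.9%), against 26.8% and 22.4% of all genes.

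**Figure D4:**
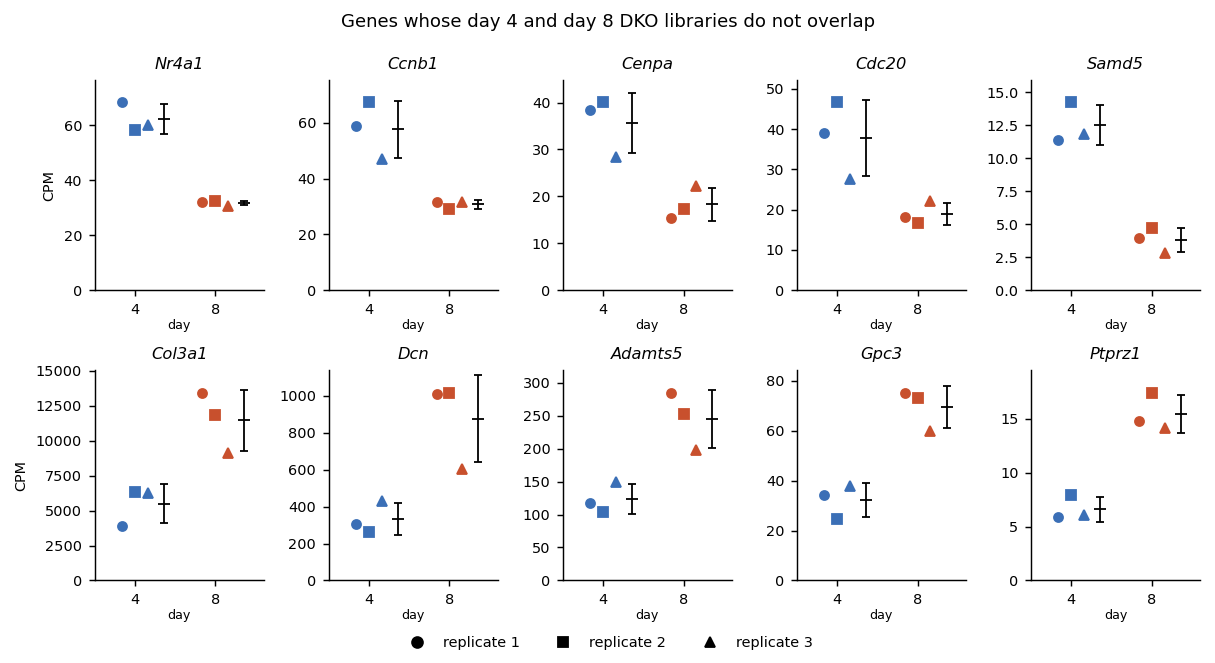
CPM (linear axes from 0) of 10 genes in the DKO libraries of day 4 (blue) and day 8 (red), 1 marker shape per replicate, with the mean and SD of the 3 libraries in black. Nr4a1 lies at 58.4 to 68.3 CPM on day 4 and at 30.8 to 32.3 CPM on day 8 with no overlap, and in Dcn, Adamts5 and Gpc3 day 8 replicate 3 is the day 8 library nearest to day 4.

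Some single genes outside these groups separated widely and were called by both DESeq2 and edgeR's fit over 24 libraries. Samd5, a SAM-domain protein, was at 11.4, 14.2 and 11.8 CPM at day 4 and at 3.94, 4.68 and 2.85 CPM at day 8, a log2 fold change of -1.72 ± 0.22 (SE). Fgf2, basic fibroblast growth factor, was at 65.7, 89.0 and 70.0 CPM and then at 40.3, 42.5 and 37.4 CPM. Cthrc1, a secreted collagen triple helix repeat protein, was at 12.8, 25.9 and 12.3 CPM and then at 5.69, 5.63 and 6.14 CPM. All 3 were lower at day 8, and replicate 3 lay with the other day 8 libraries. Id3, an inhibitor of helix-loop-helix transcription factors, and Tpbg, a membrane glycoprotein of trophoblast and embryonic cells, were lower too, with log2 fold changes of -0.85 ± 0.19 and -0.77 ± 0.15 (SE). On the other side, Ptprz1, a receptor tyrosine phosphatase, had the smallest adjusted p of the 24-library edgeR fit (0.00673), at 5.85, 7.96 and 6.05 CPM and then at 14.8, 17.4 and 14.1 CPM. Gpc3, glypican 3, was at 34.2, 24.5 and 37.7 CPM and then at 75.3, 73.2 and 60.0 CPM, and Osr1, a transcription factor of embryonic mesenchyme, was at 12.7, 12.1 and 13.7 CPM and then at 24.03, 27.3 and 19.3 CPM. Lpar1, a receptor for lysophosphatidic acid, and Amotl2, an angiomotin of cell junctions, had log2 fold changes of 0.63 ± 0.12 and 0.72 ± 0.13 (SE). None of these 10 genes had an adjusted p under 0.05 by edgeR on the 6 libraries.

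Signals between cells were mixed. Saa3 and Hp, acute-phase proteins that fat cells and macrophages secrete, were at 95.0, 54.4 and 152 CPM and at 326, 453 and 510 CPM at day 4, and at 441, 359 and 155 CPM and 2442, 1769 and 540 CPM at day 8. In both, replicate 3 was just above the highest day 4 library. Adm, the vasodilator adrenomedullin and a member of the adipocyte list, was at 33.9, 14.9 and 43.0 CPM and then at 77.3, 87.2 and 86.2 CPM, with replicate 3 among the highest. Il11 and Il6, cytokines of the gp130 family, were low and lower at day 8, at 1.14 to 2.43 and 0.721 to 2.20 CPM and then at 0.389 to 0.609 and 0.195 to 0.495 CPM. Of 31 tested chemokines, cytokines and acute-phase genes 4 separated upward and 4 downward (12.9% each). Without day 8 replicate 3 the counts were 17 (54.8%) and 6 (19.4%), against 26.8% and 22.4% of all genes. Of 39 interferon-response genes 3 separated upward (7.69%), which is near the 7.72% of all genes, and 0 downward. Without day 8 replicate 3 the counts were 3 upward and 12 downward (30.8%, against 22.4% of all genes), and the median of 0.05 became -0.47. Ifi27, an interferon-induced gene, was at 105, 80.0 and 115 CPM and then at 184, 167 and 141 CPM.

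Markers of other cells did not share one direction, and some of their separations depended on the scaling. The macrophage marker sum, given above, did not overlap between the days, and with libraries scaled by their totals it did, at 784 to 1202 CPM at day 4 and 1090 to 1388 CPM at day 8. C1qa, a subunit of complement C1q, was at 201, 119 and 249 CPM and then at 308, 359 and 266 CPM. Csf1r, the receptor for macrophage colony-stimulating factor, and Adgre1, which encodes F4/80, overlapped between the days, at 116, 97.6 and 144 CPM and 102, 103 and 123 CPM at day 4 and at 157, 181 and 139 CPM and 104, 127 and 133 CPM at day 8. Ctss, a lysosomal protease, was lower, at 120, 120 and 118 CPM and then at 90.2, 103 and 85.1 CPM. Over 26 tested macrophage and leukocyte genes 3 (11.5%) separated upward and 1 (3.85%) downward, with a median of -0.01. Without day 8 replicate 3 the counts were 7 and 7 (26.9% each), near the 26.8% and 22.4% of all genes. Sox10, a transcription factor of neural crest and glia, separated upward, at 16.2, 25.3 and 17.1 CPM at day 4 and at 27.7, 26.4 and 35.3 CPM at day 8, and with libraries scaled by their totals the days overlapped. The part of these cells in the differences of other genes was not tested.

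The same step in WT MEFs shares no library with the DKO step. edgeR called 0 of 15345 genes there (0%), with 2248 at an unadjusted p under 0.05, DESeq2 called 279, and 8.78% of genes separated upward and 9.4% downward. The interaction of genotype and day, which tests whether the step differed between DKO and WT, called 0 of 16047 genes (0%) with edgeR and 0 with DESeq2. At an unadjusted p under 0.05 edgeR gave 371 (2.31%) and DESeq2 381. Adipoq was at 88.0, 4.83 and 3.82 CPM in the WT day 4 libraries and at 250, 19.7 and 244 CPM at day 8. WT thus also had 1 day 8 library, replicate 2, far below the others, and 1 day 4 library, replicate 1, far above the others. With edgeR the WT step called 308 genes without day 4 replicate 1 and 284 without day 8 replicate 2. The WT values below include both libraries. The median over the adipocyte list was 1.13 in WT and 1.01 in DKO. For collagens and matrix proteins the WT medians were 0.86 and 0.53, with 11 of 30 and 20 of 57 members separating upward, beside 9 and 18 in DKO. Nr4a1 was at 55.3, 64.3 and 79.3 CPM in WT at day 4 and at 28.0, 23.4 and 27.5 CPM at day 8.

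No cell cycle gene passed the test of a difference between the genotypes. The median of the list was -0.07 in WT and -0.44 in DKO, and 12 of 57 members separated downward in WT beside 23 in DKO. Ccnb1 was at 45.8, 24.4 and 23.8 CPM in WT at day 4 and at 32.1, 30.3 and 35.2 CPM at day 8. The WT day 8 libraries were thus close to the DKO day 8 libraries (29.1 to 31.8 CPM), and the day 4 libraries were lower in WT than in DKO (46.9 to 67.4 CPM). WT day 4 replicate 1, at 45.8 CPM, was close to the lowest DKO day 4 library. At an unadjusted p under 0.05 the interaction was seen in 16 of the 57 members (28.1%), against 2.31% of all genes, and edgeR's adjusted p was no smaller than 1.00 for any. S100a4 gave a log2 interaction of -1.24 with an unadjusted p of 0.01 by edgeR, with WT at 49.5, 29.4 and 31.1 CPM and then at 27.1, 46.8 and 27.0 CPM.

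The earlier and later DKO libraries place the step in the time course, as a description, since they share day 4 and day 8 with the steps on either side. Adipoq was at 0.102 to 0.244 CPM at day 0 and at 1384 to 1420 CPM at day 12, where the 3 libraries lay close together. Ccnb1 was at 6.94 to 19.3 CPM at day 0 and at 3.91 to 5.59 CPM at day 12, so day 4 was the highest of the 4 days. Col3a1 was at 3619 to 12424 CPM at day 0 and at 3689 to 4177 CPM at day 12, below all 3 day 8 libraries.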

How the data were processed

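The authors sequenced strand-specific paired-end libraries, and deposited expected counts per gene, not normalized; their processing notes name bcl2fastq 2.17, cutadapt 1.18, STAR 2.7.0f, RSEM 1.3.0 and the build mm10. The labels give polyA RNA while the methods name a total RNA kit, which is not resolved here. RSEM divides reads between similar genes. Expected counts were rounded. R 4.3.3 and edgeR 4.0.16 (filterByExpr, TMM, robust quasi-likelihood test, Benjamini-Hochberg over all tested genes) compared 3 day 8 with 3 day 4 libraries, and a gene was called at an adjusted p under 0.05 and at least 1.5-fold. All adjusted p-values are from edgeR unless DESeq2 1.42.0 or limma 3.58.1 is named. CPM were TMM-scaled over 24 MEF libraries, with 0.5 added before logarithms. The tests were run on simulated counts in which genes varied independently and no library stood apart. That run cannot tell how the tests behave with a library like day 8 replicate 3. Named are Hmgn genes, 19 defining genes, called members of lists, and others chosen after their values were seen. The members and the 30 hand-written lists were chosen with earlier results of these data known. All 55450 gene identifiers matched GENCODE M21. Promoter sequences are from RefSeq (GRCm38.p6). Depth limits precision for genes near 3 counts. The deposited preadipocyte table was not used here. Counts of list members without day 8 replicate 3 were added after seeing the data. Some items are not reported here.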

Additional observations from a re-analysis of the deposited data

How the results depend on the processing

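The count of called genes in the DKO step differed between tools and fits. It was 0 with edgeR on the 6 libraries, with totals in place of TMM, with limma-voom, with genes kept from 0.5 CPM in 2 libraries or more, with no fold threshold and with a log2 threshold of 1, and it was 1 with no filter on low counts, 145 with DESeq2 and 58 in 1 fit over 24 libraries. Leaving out each library in turn gave 0 to 0 calls, with 559 to 4076 genes at an unadjusted p under 0.05, the most without day 8 replicate 3, where the smallest adjusted p was 0.0866. Chosen after seeing the data, DESeq2 and the fit over all MEF libraries without that replicate called 1500 and 878 genes. In WT the count was 0, with 279 by DESeq2, 69 in the fit over 24 libraries, 4 with no filter and 0 to 308 with 1 library left out (308 without WT day 4 replicate 1, 284 without WT day 8 replicate 2). The interaction called 0 genes under every alternative run. With the replicate block the DKO step called 0 genes, with 560 at an unadjusted p under 0.05, the WT step 0 and the interaction 0. Same-numbered DKO libraries did not deviate together (r = -0.197, -0.429 and -0.659 for the pairing of replicates 1, 2 and 3). The WT values were 0.531, 0.515 and -0.408. Deviations from a mean of 3 libraries depend on each other, so these values cannot decide whether same-numbered libraries share an origin.

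Of 78 named genes, Hmgn3, Hmgn5 and Ppargc1a changed sign in an alternative, and none of the 3 was called there. Hmgn3 (0.10) was -0.31 and -0.34 in the added fits without day 8 replicate 3, -0.031 with totals and -0.34 to 0.35 with 1 library left out. Hmgn5 (0.06) was -0.094 with totals and -0.021 to 0.13 with 1 library left out, the lowest without day 8 replicate 1. Ppargc1a (-0.33) was 0.048 and 0.029 in the added fits and -0.95 to 0.017 with 1 library left out, the highest without day 8 replicate 3. The causes were not tested.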

Other observations

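Day 8 replicate 3 of the DKO libraries was also the highest library for some genes. Marco, a scavenger receptor of macrophages, was at 47.1, 11.1 and 12.3 CPM at day 4 and at 3.79, 30.5 and 110 CPM at day 8, and Irf7, the interferon regulatory factor, was at 7.21, 4.97 and 5.64 CPM and then at 3.11, 5.06 and 11.98 CPM. In WT the day 8 library with the lowest Adipoq, replicate 2, was likewise the highest for both, with Marco at 5.84, 152 and 5.95 CPM and Irf7 at 3.91, 15.96 and 4.61 CPM. The interferon-response list stood at -0.49, -0.14 and 0.55 on the log2 scale in the DKO day 8 libraries, relative to the mean of day 4, and at -0.26, 0.88 and -0.18 in the WT day 8 libraries. Lyz2, lysozyme of macrophages, was at 2124, 3392 and 5502 CPM in DKO at day 8 and at 2843, 7226 and 2802 CPM in WT. Over all genes with at least 10 CPM in 1 of the 6 DKO libraries, 1711 had day 8 replicate 3 above the other 5 libraries and 1392 had it below them. Each gene has a highest and a lowest library, and the same counts for the other 5 libraries are not given here. These counts alone thus do not set replicate 3 apart. What sets these libraries apart was not tested.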
